A study of Arabidopsis thaliana with 3 samples.

Results

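The genes described are those of chloroplast pentatricopeptide repeat (PPR) proteins of Arabidopsis thaliana. They were taken by their description in the deposited tables, which had to hold both the word pentatricopeptide and the word chloroplastic. The rule used no measured value. The description of CRR28 names the mitochondrion as well. It found 57 of 30271 genes, and all 57 passed the filter on low values and were tested. The tables described 429 PPR genes in all, of which 135 others were described as mitochondrial and 237 with neither location. The 57 genes lie on all nuclear chromosomes, with 12 on chromosome 1, 8 on 2, 10 on 3, 13 on 4 and 14 on 5.

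PPR proteins are nuclear-encoded RNA-binding proteins built of tandem repeats, each of which contacts a single base, so that a row of repeats reads a short stretch of organelle RNA. In chloroplasts they guide the C-to-U editing of transcripts, hold or mature transcript ends, assist intron splicing and help translation. Many are needed for greening, and loss of some arrests the embryo. One subclass ends in a DYW domain, named after its last residues, which carries out the deamination in editing.

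Whole seedlings aged 9 days were compared in 3 groups of 3 libraries. WT was the Ws x Col-0 control. T12 and T34 were populations of gip1gip2, from crossing gip1 (GABI_213D01) with gip2 (FLAG_36406), with root phenotypes of increasing severity, read here as more severe in T34. GIP1 and GIP2 are small proteins of gamma-tubulin complexes, which nucleate microtubules. GIP1 was not analysed here, and GIP2 had 0 to 5 reads in each library, too few to check the labels. The sample descriptions give library 7 to WT as well as T34, and give library 6 to none. Library 7 stands among the controls of both deposited tables and served as WT replicate 1. Library 6 stands only in the table of T34 and served as T34 replicate 3. The labels speak of individual replicates without saying how plants were grown or pooled, so p-values reflect only how these libraries vary, which may be technical. In RNA of whole seedlings, fewer cells of a type and less RNA per cell cannot be told apart.

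Libraries held 20963358 to 30438933 reads. WT replicate 2 stood apart, with 95.7% of its reads from ribosomal RNA (95% Wilson interval 95.71 to 95.72%, counting error only) and 645133 reads of other nuclear genes, against 6282821 to 15270346 in the other libraries. It had 1111 reads over the 57 genes, a median of 12 per gene and 24 genes under 10 reads. The other 8 libraries had 8438 to 16144 reads over the 57 genes, with medians of 93 to 179 per gene. Ribosomal RNA took 22.5% and 49.1% of reads in WT replicates 1 and 3, 0.951 to 1.77% in T12 and 45.0 to 49.4% in T34. Of the remaining reads, organelle genes took 41.5 to 54.2% in WT, 35.5 to 37.7% in T12 and 24.2 to 25.7% in T34. These shares moved with the groups, and their part in the results was not tested.

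The coding ends show which of the proteins end in the residues DYW. Only the last 3 codons were matched, so whether the domain is present or complete was not examined. Codons for the DYW residues ended 9.63% of mitochondrial PPR genes, 12.7% of the other PPR genes and 0.215% of 27444 nuclear protein-coding genes. Of the 57 genes, 7 (12.3%) ended in them. These were DYW1, CRR28, OTP82, OTP84, CRR2, RARE1 and EMB2261. OTP85, OTP81 and ELI1 ended in the same form with phenylalanine in the middle place. Below are the last 30 coding bases before the stop codon of 6 genes, from the RefSeq annotation of assembly TAIR10.1, with the last 3 codons in capitals. DYW1, CRR28, OTP84 and CRR2 end in DYW codons. CRR4 and CRR21, editing factors of ndhD, do not.
DYW1 (chr1:17486355-17486384, plus strand): gatggtaactgctcttgtggaGATTATTGG
CRR28 (chr1:21939871-21939900, minus strand): gatggatcctgctcttgtttaGACTACTGG
OTP84 (chr3:21255734-21255763, minus strand): aatggaacttgctcctgtggaGACTATTGG
CRR2 (chr3:17231978-17232007, minus strand): aatggagtgtgttcttgtggaGATTACTGG
CRR4 (chr2:18694819-18694848, minus strand): gtagatagcattgaagtttccAGTACATTG
CRR21 (chr5:22561944-22561973, minus strand): ttattatatgatatgggtacaGGTTCCAAA

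CRR4 and DYW1 act together on the start codon of ndhD, a subunit of the chloroplast NADH dehydrogenase-like complex. The genome holds ACG there, and editing turns it into AUG. The stretch is shown with its 21 upstream bases, from the same assembly, with the unedited codon in capitals.
ndhD start (plastid genome 117165 to 117188, minus strand): ctggtgtatcttgtctttaccACG
Base changes in the RNA cannot be read from the deposited counts.

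The genes were mostly intronless in their coding part. No coding intron was annotated in 38 of the 57 (66.7%), against 23.3% of all nuclear protein-coding genes, 85.9% of mitochondrial PPR genes and 75.1% of the other PPR genes. Coding lengths ran from 720 bases in DYW1 to 4323 in EMB1270, with a median of 2130 against 1047 for all genes. The median was 1833 for mitochondrial PPR genes and 1821 for the other PPR genes. Of the 57, 19 overlapped another annotated gene, 16 of them on the opposite strand and 4 on the same strand, with AT2G42920 in both counts. Whether strand was used in counting is not given in the sources used here. The values of these 19 are therefore uncertain. They include PGR3, AT2G42920, OTP70, CLB19, AT5G02830, AT5G13770 and AT4G19440.

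Many of the chloroplast PPR genes were lower in the gip1gip2 populations, and few were higher. In T12, 28 of 57 were lower than in WT, 4 were higher and 25 did not pass (limma, adjusted p under 0.05). That is 49.1% lower and 7.02% higher, against 17.0% lower and 23.1% higher among all 20871 genes tested. Their median log2 fold change was -0.59, and that of all genes 0.06. In T34, 36 were lower, 3 were higher and 18 did not pass, or 63.2% and 5.26%, against 20.0% lower and 25.2% higher among all genes. Their median was -0.69, again with 0.06 for all genes. Both comparisons share the WT libraries. Summed over the 57 genes, normalised counts were 9915 to 12985 in WT, 8132 to 8432 in T12 and 6672 to 7266 in T34, so the groups did not overlap.

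Without WT replicate 2, 28 of the 57 (49.1%) were lower and 4 (7.02%) higher in T12, against 21.8% lower and 27.7% higher among all genes. In T34, 36 (63.2%) were then lower and 4 (7.02%) higher, against 24.7% and 29.6%. All libraries of T12 lay below all of WT in 36 of the 57 genes (63.2%) and above in 4 (7.02%), where 23.0% and 28.3% of all genes tested did so. For T34 these were 39 (68.4%) below and 3 (5.26%) above, against 25.1% and 30.9%. With upper quartile scaling, the median of all genes moved by -0.11 in T12 and -0.12 in T34. Of the 57 members, 33 were then lower and 3 higher in T12, against 4729 (22.7%) and 4183 (20.0%) of all 20871 genes. In T34, 39 of the 57 were lower and 3 higher, against 5265 (25.2%) and 4548 (21.8%). In the authors' deposited table, at an adjusted p under 0.05, 28 of the 57 members were lower and 4 higher in T12. In T34, 33 of the 57 were lower and 4 higher there. Among all genes with an adjusted p in the authors' deposited table, the share lower was 16.3% and the share higher 22.5% in T12, and these were 18.1% and 22.4% in T34.

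The PPR genes of other locations were counted beside them. Among all genes tested, 17.0% were lower and 23.1% higher in T12, and 20.0% were lower and 25.2% higher in T34. Of 132 mitochondrial PPR genes tested, 12 (9.09%) were lower and 3 (2.27%) higher in T12. In T34, 24 (18.2%) of them were lower and 5 (3.79%) higher, and their medians were -0.30 in T12 and -0.26 in T34. Of 216 other PPR genes tested, 44 (20.4%) were lower and 5 (2.31%) higher in T12. In T34, 56 (25.9%) of these were lower and 3 (1.39%) higher, with a median of -0.41 in both. The differences between the classes were not tested.

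**Figure D1:**
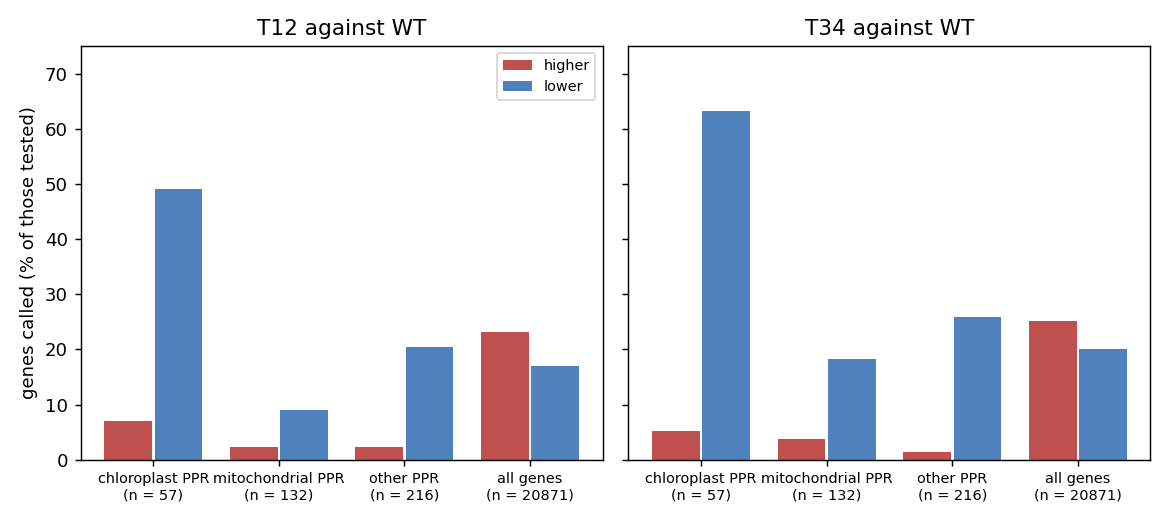
Percentage of tested genes called higher (red) or lower (blue) than WT by limma at an adjusted p under 0.05, for the chloroplast, mitochondrial and other PPR genes and for all genes. The chloroplast PPR genes have blue bars of 49.1% in T12 and 63.2% in T34, against 17.0% and 20.0% for all genes.

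**Figure D2:**
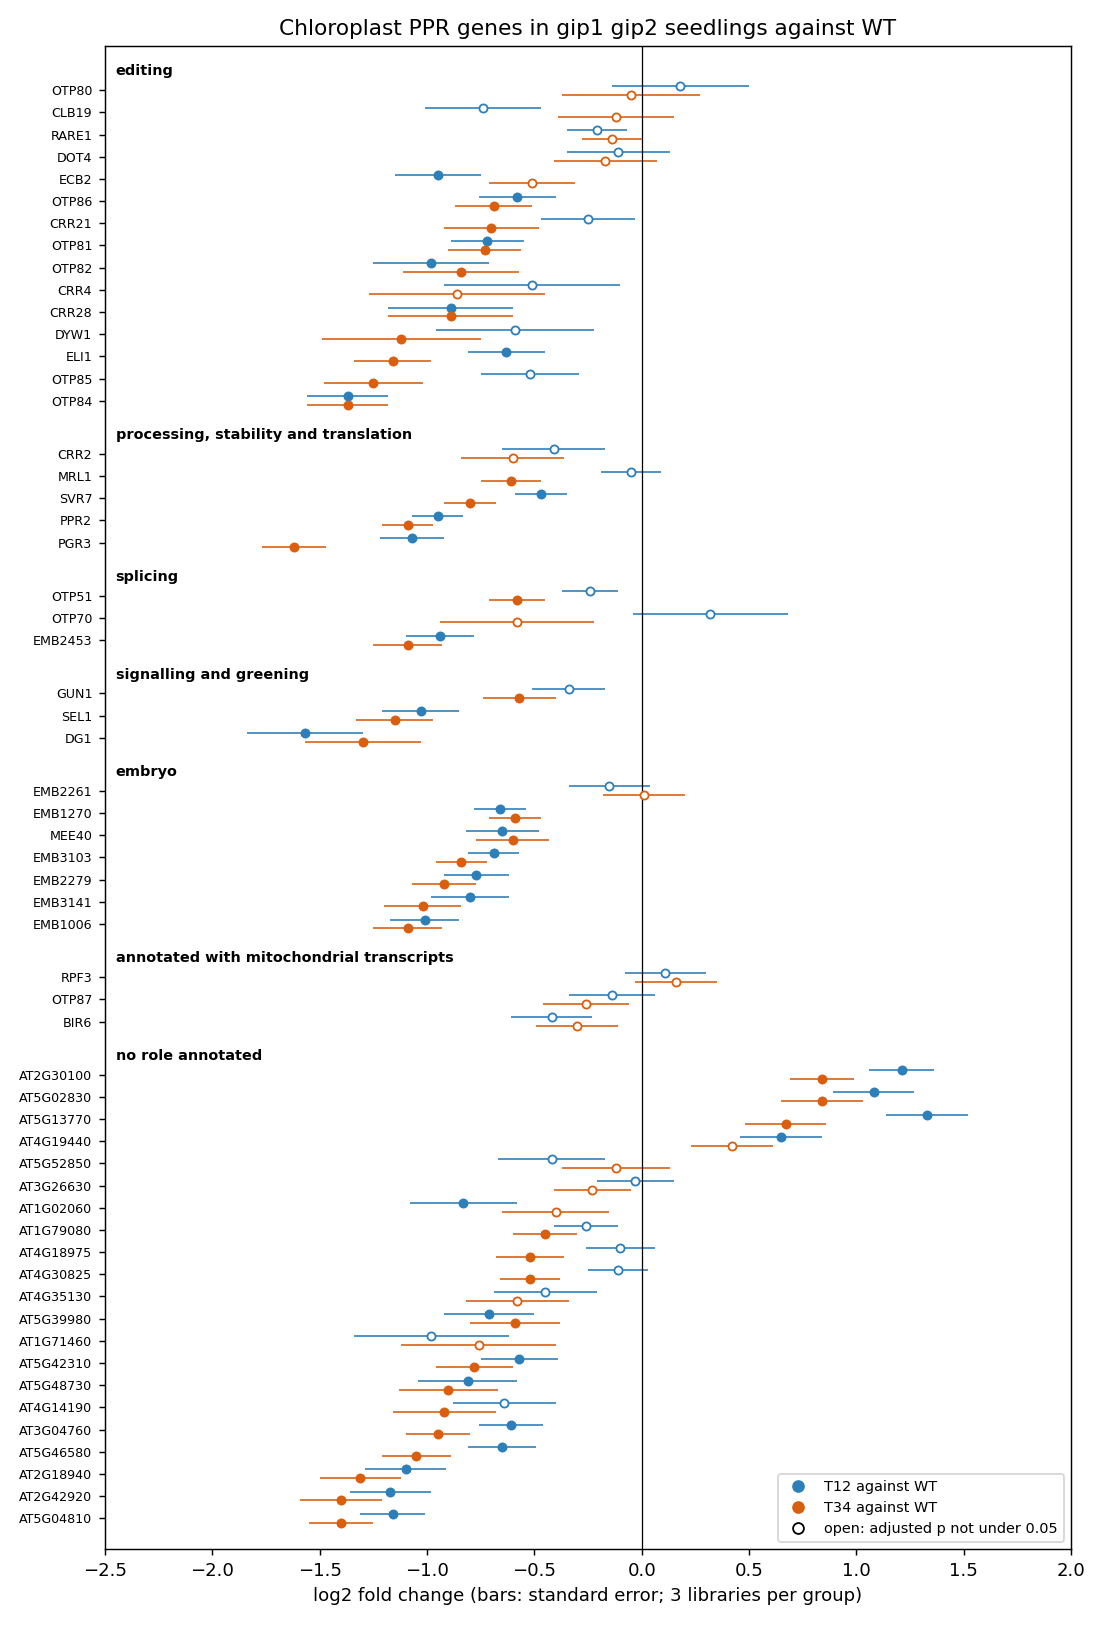
Log2 fold change of each of the 57 genes against WT in T12 (blue) and T34 (orange), grouped by role, with standard errors and 3 libraries per group. Filled points passed the test and open points did not. The embryo genes other than EMB2261 lie left of 0, and the 4 genes that rose stand among those with no annotated role.

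Editing factors formed the largest group with an annotated role. Values listed for a gene, here and below, are its normalised counts in replicates 1, 2 and 3 of each group. Among all genes tested, to be set beside this and the role groups below, 17.0% were lower and 23.1% higher in T12. In T34 these shares were 20.0% and 25.2%. Of 15 editing factors, 7 were lower in T12 and 9 in T34, and none was higher in either. Their median log2 fold changes were -0.59 and -0.73. OTP84, which edits sites of ndhB, ndhF and psbZ, had the largest fall of the group. Its normalised counts were 127, 140.2 and 129 in WT, 40.5, 56.4 and 55.5 in T12, and 42.7, 54.5 and 55.3 in T34. Every library of both populations lay under every WT library, and the fall was 2.59-fold in T12 (log2 -1.37 ± 0.19 SE, adjusted p = 0.000498) and 2.58-fold in T34 (log2 -1.37 ± 0.19 SE, adjusted p = 0.000411). OTP81, OTP82, OTP86, ELI1 and CRR28 also fell in both, by 0.58 to 0.98 on the log2 scale in T12. In T34 they fell by 0.69 to 1.16. CRR28, which edits ndhB and ndhD, lost both calls without WT replicate 2, with log2 fold changes of -0.68 in T12 (adjusted p = 0.0687) and -0.67 in T34 (adjusted p = 0.0651). Over all 9 fits that leave out 1 library, its T12 call was lost in 7 and its T34 call in 4.

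ECB2, which acts on accD, fell in T12 by 0.95 on the log2 scale (adjusted p = 0.00477) and stood at -0.51 ± 0.20 (SE, adjusted p = 0.0665) in T34. OTP85, an editing factor of ndhD, had normalised counts of 61.4, 93.5 and 63.7 in WT, 59.9, 44.9 and 45.4 in T12, and 33.2, 29.9 and 26.0 in T34. The groups did not overlap, and T34 was lowest. It was called in T34 at -1.25 ± 0.23 (SE, adjusted p = 0.00209), while T12 stood at -0.52 ± 0.23 (SE, adjusted p = 0.103). DYW1, the partner of CRR4, had 59.0, 93.5 and 96.9 in WT, 47.4, 55.1 and 59.4 in T12, and 24.5, 29.1 and 68.7 in T34. In T34 replicate 3 it lay inside the WT range, and its T34 call of -1.12 ± 0.37 (SE, adjusted p = 0.0339) passed no longer without WT replicate 2, at -1.02 (adjusted p = 0.0621). It was also lost on leaving out WT replicate 3, T12 replicate 2, T34 replicate 1 or T34 replicate 2, with a highest adjusted p of 0.121. CRR4 itself was among the lowest, at 28.9, 11.7 and 30.6 in WT, 16.0, 14.1 and 15.1 in T12, and 9.49, 9.71 and 16.7 in T34. Its value in WT replicate 2 is a single read. CRR4 passed in neither comparison with limma. In the authors' deposited table it was lower in T34 at -1.155 (adjusted p = 0.042), and stood at -0.797 (adjusted p = 0.166) in T12. CRR21 passed in T34, at -0.70 ± 0.22 (SE, adjusted p = 0.0277), and not in T12, at -0.25 ± 0.22 (SE, adjusted p = 0.398).

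The editing factors RARE1, DOT4 and OTP80 passed in neither comparison. RARE1, needed for accD editing, had 88.4, 105 and 98.1 in WT, 77.0, 89.8 and 84.1 in T12, and 90.1, 88.2 and 86.2 in T34. Its log2 fold changes were -0.21 ± 0.14 (SE, adjusted p = 0.254) in T12 and -0.14 ± 0.14 (SE, adjusted p = 0.454) in T34. CLB19, which edits rpoA and clpP, had 57.1, 35.1 and 72.6 in WT, 33.1, 29.5 and 30.8 in T12, and 46.7, 44.1 and 54.4 in T34, so T12 lay under both other groups. The value of CLB19 in WT replicate 2 rests on 3 reads, so its separation of T12 from WT is uncertain. Its T12 value of -0.74 ± 0.27 (SE, adjusted p = 0.0533) missed the threshold. In the authors' deposited table CLB19 was lower in T12 at -0.92 (adjusted p = 0.00725), and stood at -0.29 (adjusted p = 0.465) in T34.

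Among factors of transcript ends, stability and translation, 3 of 5 were lower in T12 and 4 of 5 in T34, with medians of -0.47 and -0.80. PGR3, which stabilises petL and ndhA transcripts and helps their translation, had 304, 374 and 382 in WT, 149.5, 167 and 185 in T12, and 97.3, 117 and 129 in T34. Each group lay apart from the next, with T34 lowest. The fall was 2.11-fold in T12 (log2 -1.07 ± 0.15 SE, adjusted p = 0.000618) and 3.08-fold in T34 (log2 -1.62 ± 0.15 SE, adjusted p = 4.59e-05), the largest fall among the 57 genes in T34. PPR2, which binds plastid ribosomal RNA, had 446, 456 and 563 in WT, 264, 249 and 240.0 in T12, and 221, 223 and 239 in T34, with no overlap between WT and either population. It fell by 0.95 on the log2 scale in T12 (adjusted p = 0.00026) and by 1.09 in T34 (adjusted p = 9.49e-05).

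SVR7, needed for ATP synthase expression, fell by 0.47 on the log2 scale in T12 (adjusted p = 0.0117) and by 0.80 in T34 (adjusted p = 0.00054). MRL1, which stabilises the rbcL transcript, had 615, 526 and 761 in WT, 592, 597 and 628 in T12, and 366, 429 and 442 in T34. T12 lay inside the WT range and T34 under both. Its log2 fold change was -0.05 ± 0.14 (SE, adjusted p = 0.8) in T12 and -0.61 ± 0.14 (SE, adjusted p = 0.00694) in T34. CRR2, which is needed for cleavage between rps7 and ndhB, had 150.5, 304 and 175 in WT, 149.5, 137 and 164 in T12, and 127, 146 and 122 in T34 and passed in neither comparison.

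Of the 3 splicing factors, 1 was lower in T12 and 2 in T34, with medians of -0.24 and -0.58. EMB2453 had 153, 199 and 186 in WT, 104, 80.2 and 95.3 in T12, and 79.9, 91.9 and 78.7 in T34, and its log2 fold change was -0.94 ± 0.16 (SE, adjusted p = 0.0017) in T12 and -1.09 ± 0.16 (SE, adjusted p = 0.00061) in T34. OTP51, needed for splicing of ycf3, fell in T34 by 0.58 on the log2 scale (adjusted p = 0.00554) and stood at -0.24 ± 0.13 (SE, adjusted p = 0.161) in T12. OTP70, a factor for the rpoC1 intron, passed in neither.

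Of the 3 signalling and greening genes, 2 were lower in T12 and all 3 in T34, with median log2 fold changes of -1.03 and -1.15. DG1, named for delayed greening, had 203, 467 and 273 in WT, 83.9, 97.5 and 119 in T12, and 118, 115 and 126 in T34. WT replicate 2 was the highest of all, and every WT library lay above both populations. DG1 fell 2.96-fold in T12 (log2 -1.57 ± 0.27 SE, adjusted p = 0.00177), the largest fall among the 57 genes there, and 2.46-fold in T34 (log2 -1.30 ± 0.27 SE, adjusted p = 0.00419). Without WT replicate 2, the T12 value of DG1 was -1.24, and OTP84 had the largest fall there at -1.33. SEL1, needed for seedling growth and plastid gene expression, had log2 fold changes of -1.03 and -1.15 in T12 and T34 (adjusted p = 0.00195 and 0.000878). GUN1, which relays plastid signals to the nucleus, had 1292, 2139 and 1435 in WT, 1327, 1227 and 1212 in T12, and 1041, 1083 and 1075 in T34. It was called lower in T34, at -0.57 ± 0.17 (SE, adjusted p = 0.0206), and without WT replicate 2 it stood at -0.35 (adjusted p = 0.00666). The call was lost on leaving out any 1 of the 3 T34 libraries, with a highest adjusted p of 0.062. In T12 it was -0.34 ± 0.17 (SE, adjusted p = 0.139).

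Genes named for embryo or seed arrest were lower in 6 of 7 cases in each comparison, with medians of -0.69 in T12 and -0.84 in T34. EMB3103 had 371, 386 and 372 in WT, 211, 252 and 239 in T12, and 187, 229 and 214 in T34, with tight WT values and both populations below them. Its log2 fold change was -0.69 ± 0.12 (SE, adjusted p = 0.0016) in T12 and -0.84 ± 0.12 (SE, adjusted p = 0.000425) in T34. EMB1006 fell by 1.01 in T12 and by 1.09 in T34 on the log2 scale, and EMB2279, EMB3141, EMB1270 and MEE40 fell by 0.65 to 0.80 in T12 and by 0.59 to 1.02 in T34. EMB2261, the member of this group with a DYW end, had 49.7, 58.4 and 48.4 in WT, 47.9, 53.9 and 39.8 in T12, and 57.7, 47.1 and 52.8 in T34 and passed in neither comparison.

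RPF3, OTP87 and BIR6 carry the word chloroplastic in the deposited description while the annotation ties them to mitochondrial transcripts, so their place among chloroplast proteins is in doubt. None of the 3 passed in either comparison, with log2 fold changes of -0.42 to 0.11 in T12 and -0.30 to 0.16 in T34. RPF3 had 60.8, 70.1 and 52.3 in WT, 74.8, 71.2 and 53.3 in T12, and 68.0, 72.5 and 62.8 in T34, and its groups overlapped. RPF3 also has near-identical relatives, and its value is uncertain, since the sources used here do not say how reads matching several genes were counted.

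The 21 genes with no role in the annotation used here held the rises as well as further falls. Roles may be described for some of them outside that annotation. Of these 21, 9 were lower and 4 higher in T12, and 12 were lower and 3 higher in T34, with medians of -0.57 and -0.58. AT5G04810 was the most abundant of those of the 21 that fell, with 771, 1075 and 1031 in WT, 388, 432 and 453 in T12, and 310.0, 387 and 384 in T34. It was 2.24-fold lower in T12 (log2 -1.16 ± 0.15 SE, adjusted p = 0.000343) and 2.64-fold lower in T34 (log2 -1.40 ± 0.15 SE, adjusted p = 9.46e-05), and the groups did not overlap. AT2G42920 had 140.0, 210.4 and 182 in WT, 79.9, 87.8 and 65.6 in T12, and 64.1, 61.3 and 72.0 in T34, with log2 fold changes of -1.17 ± 0.19 (SE, adjusted p = 0.00121) in T12 and -1.40 ± 0.19 (SE, adjusted p = 0.000357) in T34. AT2G18940 stood at -1.10 and -1.31 on the log2 scale in T12 and T34, and passed in both. AT1G02060 was called in T12 at -0.83 ± 0.25 (SE, adjusted p = 0.0282), and stood at -0.53 (adjusted p = 0.0272) without WT replicate 2. The call was lost without T12 replicate 1 or T12 replicate 2, with a highest adjusted p of 0.0882. AT5G42310 was called in T12 at -0.57 ± 0.18 (SE, adjusted p = 0.0322). That call was lost without WT replicate 2 (-0.39, adjusted p = 0.0516) and in other fits that leave out 1 library, 6 of 9 in all.

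The 4 genes that rose were AT5G13770, AT2G30100, AT5G02830 and AT4G19440. AT5G13770 had 109.9, 117 and 157 in WT, 277, 320.0 and 363 in T12, and 164, 217 and 231 in T34. WT was lowest, T34 lay between and T12 was highest, with no overlap. It rose 2.51-fold in T12 (log2 1.33 ± 0.19 SE, adjusted p = 0.000585) and 1.59-fold in T34 (log2 0.67 ± 0.19 SE, adjusted p = 0.0175). The T34 call was lost on leaving out WT replicate 1, T34 replicate 2 or T34 replicate 3, with a highest adjusted p of 0.0675. AT2G30100 had 71.2, 93.5 and 75.2 in WT, 198, 180.2 and 179 in T12, and 137, 161 and 132 in T34, again highest in T12 without overlap. It rose by 1.21 ± 0.15 (SE, adjusted p = 0.000256) on the log2 scale in T12 and by 0.84 ± 0.15 (SE, adjusted p = 0.00171) in T34.

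AT5G02830 had 114, 187 and 111 in WT, 298, 269 and 286 in T12, and 217, 255 and 247 in T34, and its WT replicate 2 was the highest of the WT values. It rose by 1.08 ± 0.19 (SE, adjusted p = 0.00206) on the log2 scale in T12 and by 0.84 ± 0.19 (SE, adjusted p = 0.00694) in T34. AT4G19440 had 96.4, 140.2 and 99.4 in WT, 205, 171 and 149 in T12, and 168, 143 and 134 in T34, and rose in T12 by 0.65 ± 0.19 (SE, adjusted p = 0.0236). That call was lost in 6 of 19 other settings, with upper quartile scaling among them. In T34, AT4G19440 stood at 0.42 ± 0.19 (SE, adjusted p = 0.103).

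**Figure D3:**
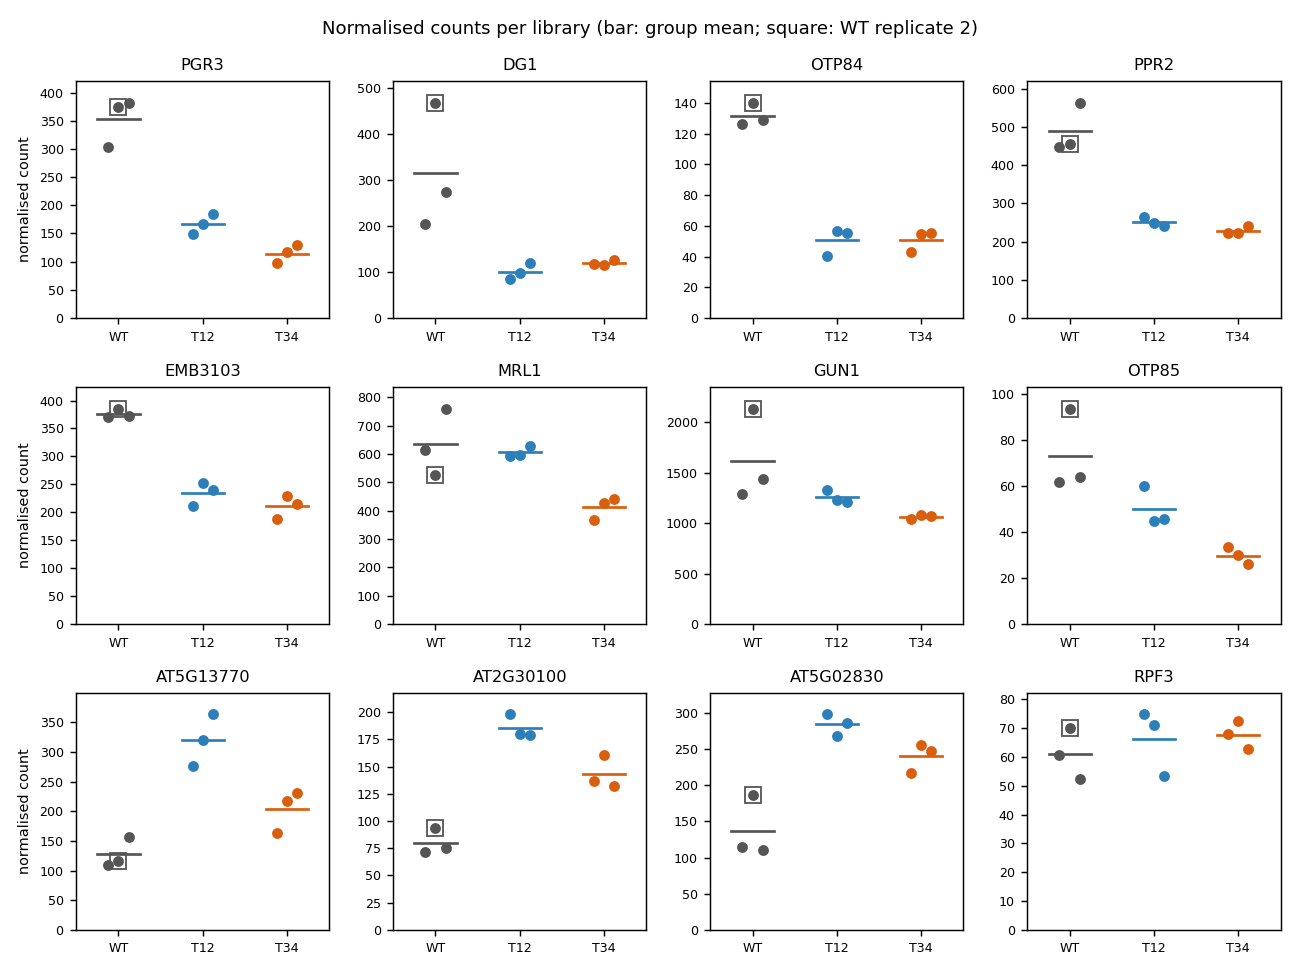
Normalised counts in each library for 12 of the genes, with group means as bars and WT replicate 2 marked by a square. PGR3, OTP84, PPR2 and EMB3103 have all WT points above all T12 and T34 points, AT5G13770, AT2G30100 and AT5G02830 have all WT points below, and RPF3 overlaps in all groups.

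Levels per kilobase of coding length differed widely between the genes. In WT they ran from 8.01 normalised counts per kilobase in OTP80 to 588 in GUN1, with a median of 64.8. AT5G04810 and PPR2 followed GUN1, at 336 and 334. CRR4 was at 12.9 and its partner DYW1 at 115. In T12 and T34, GUN1 still had 455 and 387 normalised counts per kilobase.

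Setting T34 against T12 asked whether the population with the more severe root phenotype differed further. None of the 57 genes passed in this comparison with limma, where 0.858% of all genes were higher and 1.52% lower. At an unadjusted p under 0.05 there were 14 of the 57, in either direction, against 3210 of all 20871 genes (15.4%). On the recovered reads edgeR called 1 of the 57 lower and 0 higher, against 3.55% and 3.01% of all genes. DESeq2 called 3 of the 57 lower and 0 higher, against 4.35% and 3.43%. A fit of these 2 groups alone called 4 of the 57 lower and 1 higher, against 1156 (5.54%) and 988 (4.73%) of all 20871 genes. Library quality weights gave 16 of the 57 lower and 3 higher, against 3104 (14.9%) and 3193 (15.3%) of all 20871 genes. The median log2 fold change was -0.19, against 0.00 for all genes. All T34 libraries lay below all T12 libraries in 19 genes, or 33.3%, against 15.8% of all genes, and above them in 3, or 5.26%, against 17.3%.

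The nearest to the threshold was MRL1, at -0.56 ± 0.14 (SE, adjusted p = 0.0873), which was called lower by both edgeR and DESeq2. PGR3 stood at -0.55 ± 0.15 (adjusted p = 0.118), AT5G13770 at -0.66 ± 0.19 (adjusted p = 0.127) and OTP85 at -0.73 ± 0.23 (adjusted p = 0.163). DESeq2 also called PGR3 (adjusted p = 0.0436) and AT5G13770 (adjusted p = 0.0295) lower. The fit of the 2 groups alone called MRL1, AT5G13770, OTP85 and AT4G18975 lower, and library quality weights called each of these genes and PGR3 lower. The 3 genes above T12 without overlap were CLB19, ECB2 and AT1G02060, at 0.62, 0.45 and 0.43, and these did not pass. The fit of the 2 groups alone called CLB19 higher (adjusted p = 0.0443), and library quality weights called all 3 higher. Without WT replicate 2, where 4.3% of all genes were higher and 4.79% lower, OTP85 (adjusted p = 0.0358) and MRL1 (adjusted p = 0.0169) were called lower and CLB19 (adjusted p = 0.0492) higher.

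**Figure D4:**
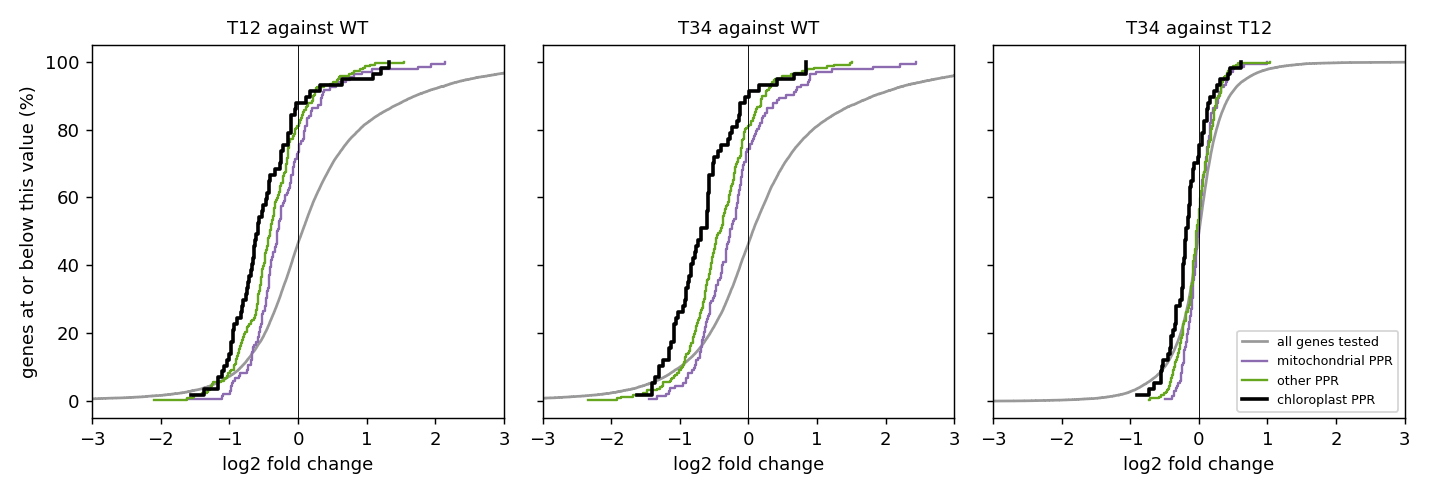
Cumulative distribution of log2 fold changes of the chloroplast PPR genes (black), mitochondrial PPR genes (purple), other PPR genes (green) and all genes tested (grey) in the 3 comparisons. The black curve crosses 50% at -0.59, -0.69 and -0.19, left of the grey curve, which crosses at 0.06, 0.06 and 0.00.

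The upstream sequences were searched because many of the genes were lower in both populations. TGGGCC and TGGGCT, words of the site II type known from promoters of genes active in growing tissue, were counted on both strands in the 250 bases before each annotated gene start. Where a TGGGCC word on each strand overlapped, both were counted. At least 1 of them stood in 23 of the 57 windows (40.4%), against 24.4% for mitochondrial PPR genes, 32.5% for other PPR genes and 19.2% for 27443 nuclear protein-coding genes. The telo-box word AAACCCTA stood in 3 (5.26%), against 4.49% of all. Of the 23 genes with a TGGGCC or TGGGCT word, 13 (56.5%) were lower in T12 and 14 (60.9%) in T34. Of the 34 without, 15 (44.1%) were lower in T12 and 22 (64.7%) in T34. Among all genes tested, 17.0% were lower and 23.1% higher in T12, and 20.0% were lower and 25.2% higher in T34. The difference between genes with and without a word was not tested. Of the 4 genes that rose in T12, 3 held such a word as well. Many of the 57 windows overlapped another annotated gene. Among the windows with a TGGGCC or TGGGCT word, this applied to those of OTP84, PGR3, MRL1, EMB2453, OTP80 and AT4G19440. Windows of 1 gene that fell and 1 that rose are shown, from assembly TAIR10.1, with the words searched for, on either strand, in capitals. A match is a description of letters and does not show binding.
EMB3103 (chr1:3639585-3639834, plus strand): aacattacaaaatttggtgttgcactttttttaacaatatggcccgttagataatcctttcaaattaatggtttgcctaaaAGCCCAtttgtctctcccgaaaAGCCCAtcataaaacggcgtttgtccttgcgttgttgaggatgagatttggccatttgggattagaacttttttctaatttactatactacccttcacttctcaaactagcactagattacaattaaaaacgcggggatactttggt
AT2G30100 (chr2:12847268-12847517, plus strand): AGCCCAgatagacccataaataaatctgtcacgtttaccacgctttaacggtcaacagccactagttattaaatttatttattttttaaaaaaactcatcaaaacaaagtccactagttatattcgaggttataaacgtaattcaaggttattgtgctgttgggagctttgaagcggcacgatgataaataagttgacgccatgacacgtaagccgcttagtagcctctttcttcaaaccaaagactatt

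Other nuclear genes of plastid RNA synthesis and processing were listed in 5 groups of 44 genes, of which 43 were tested. For comparison with these groups, 17.0% of all genes tested were lower and 23.1% higher in T12. In T34 these shares were 20.0% and 25.2%. Among 12 proteins associated with the plastid-encoded RNA polymerase, 7 were lower in T12 and 9 in T34, and 0 were higher, with medians of -0.72 and -1.01. PTAC6 had 581, 1064 and 774 in WT, 178, 192 and 186 in T12, and 186, 192 and 218 in T34, and its log2 fold change was -2.07 ± 0.19 (SE, adjusted p = 5.01e-05) in T12 and -1.98 ± 0.19 (SE, adjusted p = 5.47e-05) in T34. Among 6 sigma factors, which direct that polymerase to promoters, and the phage-type polymerase RPOTP, 4 were lower in each population, with medians of -0.73 and -1.05. SIG4 was among them, with log2 fold changes of -1.99 in T12 and -2.28 in T34. SIG5, the stress- and blue-light-responsive sigma factor, had 54.0, 81.8 and 71.4 in WT, 293, 541 and 519.9 in T12, and 633, 707 and 584 in T34, and rose by 2.66 ± 0.24 (SE, adjusted p = 4.48e-05) in T12 and by 3.21 ± 0.24 (SE, adjusted p = 1.34e-05) in T34. SIG1 rose in T12 by 0.76 ± 0.21 (SE, adjusted p = 0.0162) and stood at 0.08 ± 0.21 (SE, adjusted p = 0.76) in T34.

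Of 5 editing cofactors tested, 3 (MORF9, ORRM1 and ORRM6) were lower in both populations, the medians were -0.47 and -0.53, and OZ1 was higher in T34 at 0.39 ± 0.13 (SE, adjusted p = 0.0339). MORF2 was not analysed here. Of 10 splicing factors, 5 were lower in T12 and 7 in T34, with medians of -0.59 and -0.80 and CAF2 at -1.16 and -1.53 on the log2 scale. Of 9 RNA-binding proteins and nucleases, 7 were lower in T12 and 8 in T34, with medians of -0.91 and -1.24. CP29A, a chloroplast ribonucleoprotein, had 3426, 7141 and 5206 in WT, 567, 557 and 547 in T12, and 449.9, 521 and 482 in T34, with log2 fold changes of -3.17 ± 0.22 (SE, adjusted p = 1.02e-05) in T12 and -3.38 ± 0.22 (SE, adjusted p = 6.42e-06) in T34. Between T34 and T12, PTAC7 and PSRP2 were lower in T34, at -0.77 (adjusted p = 0.0495) and -0.70 (adjusted p = 0.0332).

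**Figure D5:**
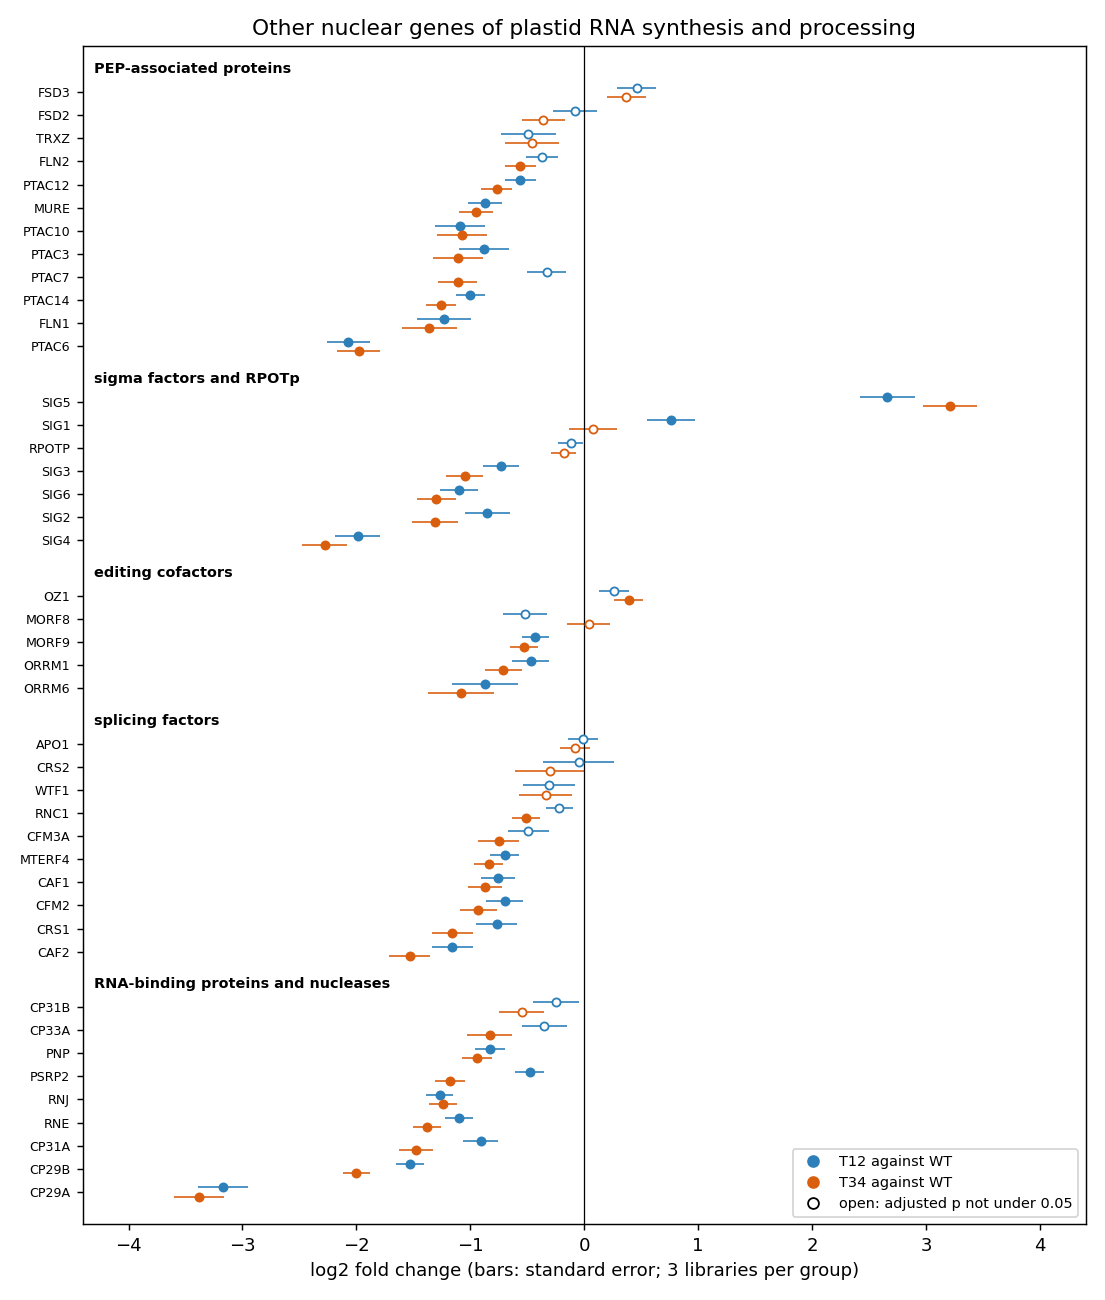
Log2 fold changes against WT in T12 (blue) and T34 (orange) of the 43 tested genes of the other groups of plastid RNA synthesis and processing, with standard errors and filled points for genes that passed. Most lie left of 0, with CP29A at -3.17 and -3.38, and SIG5 stands to the right at 2.66 and 3.21.

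Plastid transcripts on which members act are given beside them. The rbcL transcript, which MRL1 stabilises, had a log2 fold change of -0.40 ± 0.55 (SE, adjusted p = 0.596) in T12 and -1.60 ± 0.55 (SE, adjusted p = 0.0407) in T34. For atpB, which depends on SVR7, these were -0.41 ± 0.19 (SE, adjusted p = 0.111) and -1.34 ± 0.19 (SE, adjusted p = 0.000412). For ndhD, edited with CRR4, they were -0.11 ± 0.25 (SE, adjusted p = 0.754) and -1.0 ± 0.25 (SE, adjusted p = 0.0103). The rpoA transcript, which CLB19 edits, fell by 0.43 in T12 (adjusted p = 0.0448) and by 1.2 in T34 (adjusted p = 0.000207), and was lower in T34 than in T12 at -0.77 (adjusted p = 0.034).

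For accD, edited with RARE1, the log2 fold change was 0.03 ± 0.20 (SE, adjusted p = 0.919) in T12 and -0.69 ± 0.20 (SE, adjusted p = 0.019) in T34. For ycf3, spliced with OTP51, it was 0.05 ± 0.19 (SE, adjusted p = 0.834) and -0.68 ± 0.19 (SE, adjusted p = 0.0154). The petL transcript, which PGR3 stabilises, had 259.8, 164 and 677 in WT, 328, 1417 and 398 in T12, and 340.0, 276 and 181 in T34 and passed in neither comparison. The share of organelle reads fell from WT to T34 as given above. The part of that share in their values was not tested.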

How the data were processed

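RNA of whole seedlings was sequenced from ribosome-depleted stranded libraries. Per the submitters' processing notes, reads were handled with HISAT2 2.1.0, cutadapt 1.8.1, DESeq2 1.22.2 and featureCounts 1.6.2 on build TAIR10. The sources used here give neither multi-mapping nor strand settings. The authors deposited 2 tables of 30271 genes with normalised signal per library (counts over size factors) and, per the file headers, a test statistic (score), log2 fold changes, standard errors, p-values and adjusted p-values. Values were whole multiples of what 1 read is worth (100% at a tolerance of 0.01), so whole reads were recovered as counts from the deposited values.

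Differences were tested with limma-trend (version 3.58.1 in R 4.3.3) on log2(normalised count + 1), with all 9 libraries in 1 fit and genes at 10 or more in at least 3 libraries. It was tested on simulated T12 and WT data of 20672 genes, where it recovered 64% of changes of 1 and 98% of changes of 2 on the log2 scale. Fold changes are on that scale, which understates changes of low genes. Errors are standard errors with n = 3 per group. Calls needed an adjusted p (Benjamini-Hochberg) under 0.05 over all 20871 genes tested, and edgeR 4.0.16 and DESeq2 1.42.0 on recovered reads were alternatives. Members and lists were chosen with earlier results of these data known. Genes were named if their role was listed, or among the 8 largest changes per direction with a mean of at least 50 and groups apart. Upstream sequences of other members are not reported here. Members shown as close to the threshold, as overlapping or as examples of sequences were chosen after their values were seen. Read counts limit precision, and counting error is largest in WT replicate 2.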

Additional observations from a re-analysis of the deposited data

How the results depend on the processing

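Of the calls among the 57 genes, 21 of 32 in T12 and 27 of 39 in T34 held in all other settings run, and none reversed. The calls lost on leaving out at least 1 library were those of AT1G02060, AT4G19440, AT5G39980, AT5G42310, AT5G48730, CRR28, ELI1, MEE40, OTP82, OTP86 and SVR7 in T12, with a highest adjusted p of 0.106. In T34 they were those of AT1G79080, AT4G14190, AT4G18975, AT4G30825, AT5G13770, AT5G39980, CRR21, CRR28, DYW1, GUN1, MEE40 and OTP82, with a highest adjusted p of 0.139. The settings were 2 other pseudocounts, 2 other filters, 2 other scalings, edgeR, DESeq2, each library left out, the 2 groups alone and library quality weights. Leaving out 1 library at a time gave 20 to 31 of the 57 genes lower and 3 to 4 higher in T12. It gave 27 to 37 lower and 2 to 4 higher in T34, and 0 to 2 lower and 0 to 1 higher for T34 against T12. The lowest and highest medians of the 57 genes were -0.68 and -0.53, -0.75 and -0.62, and -0.22 and -0.14. Calls over all 20871 genes moved with these fits as well. They ran from 2560 to 4544 lower and 3790 to 5776 higher in T12, and from 3164 to 5153 and 4177 to 6174 in T34. For T34 against T12 they ran from 12 to 1000 lower and 2 to 898 higher. For T34 against T12, edgeR called 1 of the 57 genes lower, DESeq2 3 lower and the 2 groups alone 4 lower and 1 higher. Library quality weights called 16 of the 57 lower and 3 higher, where limma called 0. Of all genes, edgeR called 3.55% lower and 3.01% higher, and DESeq2 4.35% and 3.43%. The 2 groups alone gave 5.54% and 4.73%, library quality weights 14.9% and 15.3%, and limma 1.52% and 0.858%. The cause of the differences between these fits was not tested. Upper quartile scaling changed the calls over all genes from 4827 higher and 3555 lower to 4183 and 4729 in T12, and from 5262 and 4166 to 4548 and 5265 in T34. No paired analysis was possible because the libraries carry no replicate number shared between groups. Depth limits the low members: in WT replicate 2, 24 of 57 genes had under 10 reads.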

Other observations

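OTP70 had the widest spread among T12 libraries of the splicing factors, with normalised counts of 88.4, 117 and 93.0 in WT, 195, 133 and 72.9 in T12, and 85.4, 74.0 and 45.2 in T34. T12 replicate 1 lay above all WT libraries and T12 replicate 3 below them. OTP70 overlaps a neighbour on the same strand by 306 bases.

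Among the mitochondrial PPR genes, log2 fold changes ran from -1.63 to 2.14 in T12 and from -1.46 to 2.44 in T34, and among the other PPR genes from -2.09 to 1.54 and from -2.34 to 1.51. The chloroplast PPR genes ran from -1.57 to 1.33 and from -1.62 to 0.84. These are values of single genes with no test of the difference between classes.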
